A study of Rattus norvegicus with 5 samples.

Results

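Genes of 10 secreted salivary proteins were followed in rat parotid glands during the first hour after isoproterenol, an agonist of beta-adrenergic receptors. The members are Amy1, Lpo, Bpifa2f, Slpi, Oprpn, Spt1, Prr4, Grpca, Scgb1b30 and Scgb1c1, taken as all probes that carry one of these symbols in the platform annotation. The 10 genes had 1 probe each, 10 of the 22517 probes on the array, which name 13336 genes by symbol. They were proposed with the differences seen on these arrays in view, so their own differences are given below as descriptions and not as tests.

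The study used 5 male Sprague-Dawley rats, 2 to 3 months of age by the labels, each injected intraperitoneally and each hybridised to 1 Illumina bead array. The groups were saline (2 rats) and isoproterenol with glands taken at 10, 30 or 60 min (1 rat at each time). The labels write the isoproterenol dose as 20 mg per g body weight, a unit that is in doubt. The 3 isoproterenol times therefore had no replicates, and every spread between rats comes from the saline pair, with no stated time from injection to death.

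Salivary acinar cells make large amounts of a small set of proteins, store them in granules, and release them when noradrenaline acts on beta-adrenergic receptors and raises cyclic AMP. In rodents, repeated isoproterenol over days is known to raise the production of proline-rich proteins and related saliva proteins in the parotid. The protein already stored is released within minutes, whereas these arrays measured RNA. In whole tissue, fewer cells of a type and less RNA per cell cannot be told apart.

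All values are log2 normalized intensities unless an intensity is named. The deposited intensities had been brought to the same distribution on each array (sorted values differed by a median of 0.133%), and the brightest probe, one of Prb3, stood at an intensity of 40814.61 on all 5. A level within this scale is thus fixed by the probe's rank on its array, and the top of the scale, 15.32, cannot be passed by any probe. Signals of different probes were not compared as amounts of RNA. Their distances from the top say only how much room a probe had to go higher. All 10 members were above background on all 5 arrays (deposited detection p-value of 0 throughout), and all 10 were among the 10793 probes with a detection p-value under 0.01 on at least 1 array that were fitted. Of 7 parotid acinar markers, the 5 on the array (Amy1, Bpifa2, Aqp5, Prpmp5 and Dnase1) were detected in every gland. Skeletal muscle markers set the glands apart, with summed background-corrected intensities of 49527 and 920 in the saline rats and of 907, 50384 and 5492 at 10, 30 and 60 min (14 of 14 markers on the array were detected in at least 1 gland). The summed endothelial and fibroblast markers were 25978 and 24734 in the saline rats and 6424, 9987 and 7934 at the 3 times. The collagen gene Col1a2 was the brightest of them on every array and weighed most in the sum. The endothelial markers Cdh5 and Tek were detected on no array.

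The distance of the members from the top of the scale ran from 0.24 for Amy1 to 9.41 for Scgb1c1, as means over the 5 arrays. Of the 16 probes within 0.5 of the top, 1 was a member, Amy1. Of the 116 probes within 2 of the top, 2 were members, Amy1 and Bpifa2f at 1.46. Lpo was 3.09 below the top, Oprpn 3.74, Scgb1b30 5.67, Spt1 6.38, Prr4 8.0, Grpca 8.06 and Slpi 8.85. Thus Amy1 and, more loosely, Bpifa2f were near the ceiling, and the other 8 had more than 3 log2 units above their mean level.

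**Figure D1:**
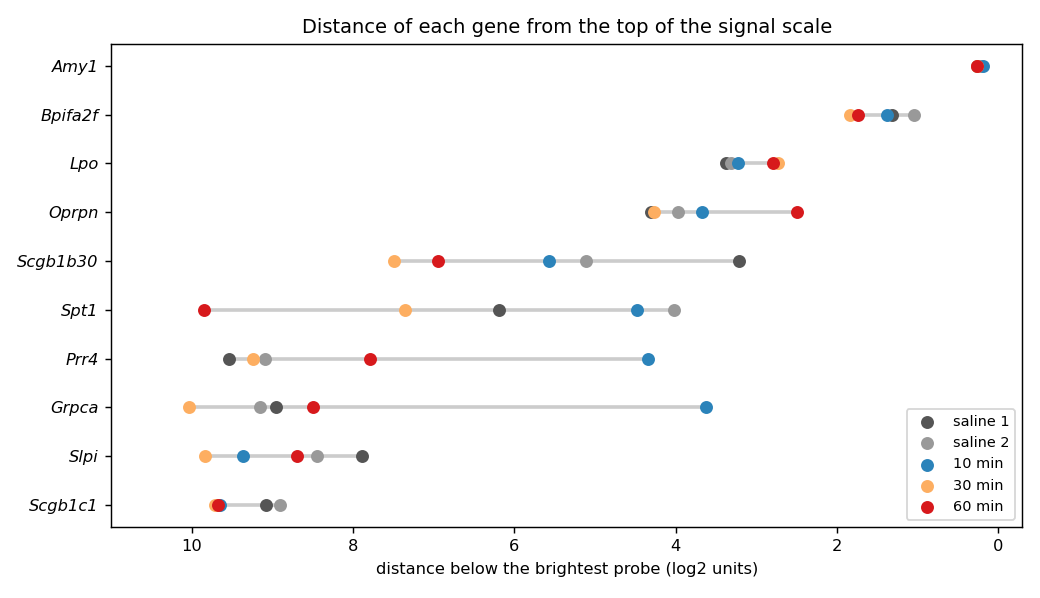
Distance of each member below the brightest probe, in log2 units on the horizontal axis with the top of the scale at the right, 1 point for each array and a line for the range over the 5 arrays. Amy1 stayed between 0.19 and 0.26 below the top on every array, whereas Grpca was 3.63 from it in the gland at 10 min and 10.04 from it in the gland at 30 min.

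Amy1 encodes salivary alpha-amylase, the starch-digesting enzyme whose release is the usual measure of parotid secretion. It read 15.05 and 15.09 in the saline rats and 15.12, 15.05 and 15.05 at 10, 30 and 60 min, that is, intensities of 34028, 34862, 35735, 34028 and 34028. The identical value on 3 arrays is the value of the 8th-ranked probe, the rank Amy1 held on each of those arrays. The differences from the saline mean were 0.05, -0.02 and -0.02 at 10, 30 and 60 min (SE 0.20 each). A probe at this rank could go up by no more than 0.26 before reaching the top, so a higher amylase RNA could not have been read out in full on this scale.

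Lpo encodes lactoperoxidase, the peroxidase of saliva that makes antibacterial hypothiocyanite. It stood at 11.93 and 12.00 in the saline rats, 12.08 at 10 min, 12.58 at 30 min and 12.52 at 60 min. All 3 isoproterenol glands were above both saline glands, which differed by only 0.06. Relative to the saline mean it differed by 0.12, 0.62 and 0.55 (SE 0.20 each), the later pair corresponding to 1.53-fold and 1.47-fold. Lpo was the 1 member above both saline values at all 3 times, a pattern that 14.0% of all tested probes had.

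Bpifa2f belongs to the BPI fold family, whose parotid relative Bpifa2 binds bacterial lipopolysaccharide. It read 13.99 and 14.27 in the saline rats, 13.94 at 10 min, 13.48 at 30 min and 13.58 at 60 min. Every isoproterenol gland lay below both saline glands, the one at 10 min by 0.06 from the nearer. The differences from the saline mean were -0.20, -0.65 and -0.55 (SE 0.23 each). The neighbouring gene Bpifa2, adjacent to Bpifa2f in the reference annotation of chromosome 3, had 15.07 and 15.14 in the saline rats and 15.10, 15.07 and 15.18 at the 3 times, within 0.25 of the top throughout.

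Slpi encodes secretory leukocyte peptidase inhibitor, which blocks neutrophil elastase at mucosal surfaces. It had intensities of 222 and 166 in the saline rats and of 111, 93.7 and 147 at 10, 30 and 60 min. On the log2 scale these were 7.43, 6.87, 5.95, 5.48 and 6.62, with all 3 isoproterenol glands below both saline glands. Set against the saline mean, the glands differed by -1.20, -1.67 and -0.53 (SE 0.30 each), or 2.30-fold, 3.18-fold and 1.45-fold lower. The value at 60 min was 0.25 below the second saline rat, less than the 0.56 between the saline rats. Without background correction the difference at 30 min shrank to -1.03, and in the authors' deposited table of processed values to -0.97. All 9 ductal markers on the array (8 detected in at least 1 gland, Klk1 in none) were summed. Their summed intensity was 12590 and 10186 in the saline rats and 10622, 7394 and 7026 at 10, 30 and 60 min. The keratin gene Krt8 was the brightest of them on every array and weighed most in this sum. The part of ductal tissue in the Slpi values was not tested.

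**Figure D2:**
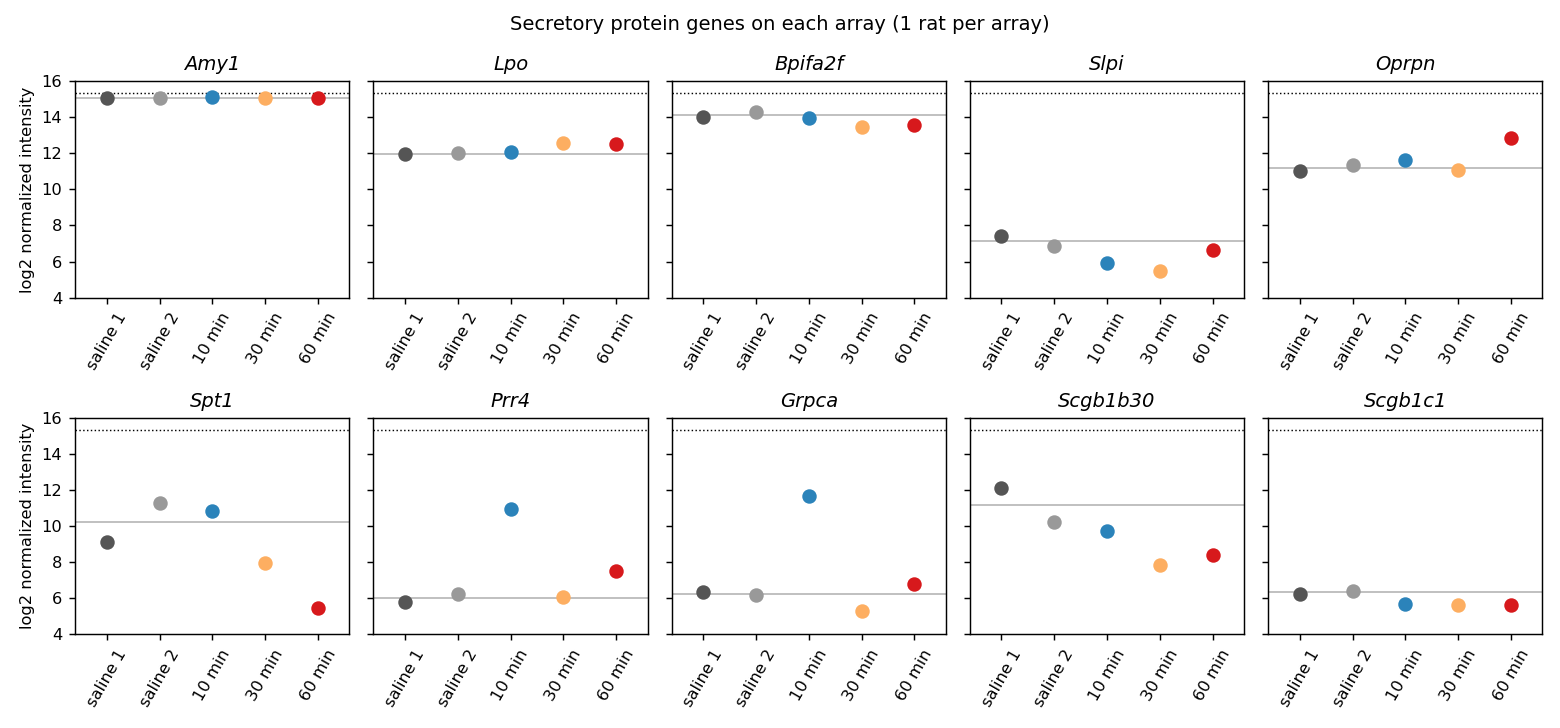
Log2 normalized intensity of each member on the vertical axis, with 1 point for each array, that is, for each rat, in the order saline 1, saline 2, 10, 30 and 60 min. The grey line is the mean of the 2 saline arrays and the dotted line the top of the scale at 15.32. Prr4 and Grpca stand out at 10 min, Spt1 and Scgb1b30 differ widely between the saline rats, and Amy1 lies along the top.

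Prr4 and Grpca encode proline-rich and glutamine-rich salivary proteins, known in rat as glutamine/glutamic acid-rich proteins of submandibular saliva. Prr4 had intensities of 104 and 124 in the saline rats and of 2056, 116 and 232 at 10, 30 and 60 min. On the log2 scale it read 5.78 and 6.22 in the saline rats, 10.97 at 10 min, 6.07 at 30 min and 7.52 at 60 min. The gland at 10 min stood far above every other gland, that at 30 min lay between the saline rats, and that at 60 min was above both. The differences from the saline mean were 4.97, 0.07 and 1.52 (SE 0.27 each), which is 31.4-fold at 10 min and 2.87-fold at 60 min. As a ratio of deposited intensities, which still contain the background, the value at 10 min was 18.1-fold. In the authors' deposited table of processed values the Prr4 differences were 4.22, 0.03 and 0.999.

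Grpca had intensities of 131 and 120 in the saline rats and of 3350, 87.8 and 161 at 10, 30 and 60 min. Its log2 values were 6.35 and 6.16 in the saline rats, 11.69 at 10 min, 5.27 at 30 min and 6.81 at 60 min. Grpca differed from the saline mean by 5.43, -0.98 and 0.56 (SE 0.22 each). The gland at 10 min was 43.2-fold above the saline mean on this scale and 26.6-fold in deposited intensity, the gland at 30 min lay below both saline rats, and the gland at 60 min lay above both. Among the members, Grpca had the widest range over the 5 arrays, 6.41 log2 units. In the authors' deposited table of processed values its differences were 4.75, -0.47 and 0.34. Ranked by intensity among all 22517 probes, Grpca was at position 395 at 10 min and at 8515 at 30 min.

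The Grpca and Prr4 probes cannot be counted as separate observations with certainty. The Entrez identifier of the Grpca probe is not listed in the reference table (RefSeq, GRCr8), where Grpca is a synonym both of Prr4 and of the gene adjacent to it on chromosome 4, Prh1. Their profiles were the closest to each other of all 7767 tested probes with a named gene. The root mean square distance was 0.63 log2 units over the 5 arrays, each profile centred on its own mean. The gland at 10 min weighs most in this distance, and the members were proposed with its values in view. The closeness therefore cannot decide whether the probes read separate genes. The next closest to Grpca were Fn3k at 1.72 and Cldn24 at 1.83, and to Prr4 Cldn24 at 1.39 and Fn3k at 1.47. Fn3k encodes fructosamine 3 kinase, and its 10 min value of 8.54, against 7.40 and 7.10 in the saline rats, was a much smaller departure.

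The peak at 10 min rests on 1 rat. Because both proteins are known from submandibular saliva, the markers of the other salivary glands are given beside it. Of 9 submandibular and sublingual marker genes on the array, 5 were detected in at least 1 gland, and Smgc, Cst4, Klk1c10 and Klk1c12 were below the detection limit in all 5. The summed intensity of all 9 was 20783 at 10 min, against 14348 and 15825 in the saline rats, and 15858 and 16389 at 30 and 60 min. Smr3a, a submandibular gland androgen-regulated protein gene, was 13.65 in the gland at 10 min, against 12.73 and 12.84 in the saline rats. It read 13.28 and 13.33 at 30 and 60 min. Smr3a was the brightest of these markers at 10 min, with the largest difference from the saline mean on the list, 0.87. The larger sum at 10 min was thus mainly that of Smr3a and not a rise shared by the list. The other detected markers at 10 min were Egf at 11.76 (saline rats 11.24 and 11.76), Klk1c9 at 12.10 (saline rats 12.27 and 12.29) and Klk1c2 at 6.44 (saline rats 5.77 and 6.55). The part of other glandular tissue in the Prr4 and Grpca values was not tested.

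The 250 bases before the annotated start of Prr4 are shown because Prr4 and Grpca moved together and Prr4 lies beside Prh1. The stretch is chr4:168336251-168336500 on the plus strand of GRCr8, from RefSeq, with TATAAA in capitals at positions -33 to -28 from the start. The sources used here give no build for the array's probes.
Prr4: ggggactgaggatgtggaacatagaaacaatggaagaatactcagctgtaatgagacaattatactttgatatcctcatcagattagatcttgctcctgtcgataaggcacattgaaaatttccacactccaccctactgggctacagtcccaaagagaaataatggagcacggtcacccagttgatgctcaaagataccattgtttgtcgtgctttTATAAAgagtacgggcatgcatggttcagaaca

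Oprpn is the gene of an opiorphin prepropeptide (also listed as Muc10 and Prol1), and in human the related precursor releases opiorphin, an inhibitor of enkephalin-degrading peptidases. It had intensities of 2108 and 2647 in the saline rats and of 3234, 2166 and 7303 at 10, 30 and 60 min. The log2 values were 11.01 and 11.34 in the saline rats, 11.64 at 10 min, 11.05 at 30 min and 12.82 at 60 min. The gland at 60 min stood above all others, the gland at 30 min lay between the saline rats, and the gland at 10 min was 0.29 above the higher of them. Oprpn differed from the saline mean by 0.46, -0.13 and 1.65 (SE 0.24 each), the last being 3.14-fold, or 3.07-fold in deposited intensity. Against either saline rat alone the difference at 60 min was 1.82 or 1.48. Oprpn and Smr3a lie near each other on chromosome 14, with 3 coding genes between them in the reference annotation, and Smr3a differed from the saline mean by 0.87, 0.49 and 0.55 at 10, 30 and 60 min (SE 0.21 each). Smr3a was not past the threshold at any of these times, but it was called higher at 60 min without background correction, from the authors' values and when the prior variance followed intensity.

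The promoter stretch of Oprpn, the member with the largest positive difference at 60 min, is chr14:20001590-20001839 on the minus strand (RefSeq, GRCr8). Capitals again mark TATAAA, here at positions -247 to -242.
Oprpn: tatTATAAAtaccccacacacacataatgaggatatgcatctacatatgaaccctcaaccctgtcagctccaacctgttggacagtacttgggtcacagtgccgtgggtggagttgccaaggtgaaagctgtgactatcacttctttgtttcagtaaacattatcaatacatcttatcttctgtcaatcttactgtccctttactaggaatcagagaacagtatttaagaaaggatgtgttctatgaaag

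Spt1 encodes salivary protein 1. It had intensities of 606 and 2570 in the saline rats and of 1881, 297 and 93.3 at 10, 30 and 60 min. The log2 values were 9.12 and 11.30 in the saline rats, 10.84 at 10 min, 7.96 at 30 min and 5.47 at 60 min. The saline rats themselves differed 4.53-fold, the gland at 10 min lay between them, and the glands at 30 and 60 min lay below both. Spt1 differed from the saline mean by 0.63, -2.25 and -4.74 (SE 0.88 each), so that the later glands were 4.77-fold and 26.7-fold lower. At 60 min the difference was -3.65 against the first saline rat alone and -5.83 against the second, and -3.72 in the authors' deposited table of processed values. In deposited intensity the gland at 60 min was 17.0-fold lower than the saline mean. The sign at 10 min depended on the saline rat, with -0.46 against the second alone and 1.72 against the first alone.

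The profiles closest to Spt1 were those of Fbxl20 at a root mean square distance of 1.24, Rad52 at 1.26 and Nr1d1 at 1.27. These matches were looser than that of Prr4 with Grpca, at 0.63. Within the saline pair Spt1 was higher in the second rat, whereas Fbxl20 was higher in the first and Rad52 was nearly equal. Fbxl20 encodes an F-box protein, Rad52 a DNA repair protein and Nr1d1 a nuclear receptor of the circadian clock. All 3 had their lowest value at 60 min and spanned less than Spt1, with Fbxl20 at 6.16 in that gland, against 9.29 and 8.88 in the saline rats. Nr1d1 read 6.84 at 60 min, against 9.46 and 9.86 in the saline rats. The sources used here do not give the time of day at which each gland was taken, and its part in these values was not tested.

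The promoter stretch of Spt1, the member with the largest negative difference, is chr7:136918250-136918499 on the minus strand (RefSeq, GRCr8). Capitals mark CGTCA, the reverse complement of TGACG, at positions -91 to -87.
Spt1: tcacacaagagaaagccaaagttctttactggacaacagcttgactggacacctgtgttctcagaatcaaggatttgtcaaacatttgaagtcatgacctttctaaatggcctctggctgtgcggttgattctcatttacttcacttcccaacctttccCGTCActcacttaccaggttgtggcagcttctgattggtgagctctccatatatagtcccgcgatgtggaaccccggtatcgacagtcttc

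Scgb1b30 and Scgb1c1 are secretoglobins, small secreted alpha-helical proteins. In mouse saliva, subunits of the Scgb1b kind pair with subunits of the Scgb2b kind to form androgen-binding proteins. Scgb1b30 had intensities of 4452 and 1225 in the saline rats and of 907, 274 and 379 at 10, 30 and 60 min. The log2 values were 12.10 and 10.20 in the saline rats, 9.74 at 10 min, 7.82 at 30 min and 8.37 at 60 min. Every isoproterenol gland lay below both saline rats, which differed 3.75-fold from each other. The differences from the saline mean were -1.41, -3.34 and -2.78 (SE 0.77 each), the later pair being 10.1-fold and 6.88-fold lower. Against the second saline rat alone they were -0.46, -2.38 and -1.83.

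The closest profile to that of Scgb1b30 was Scgb2b24, at a root mean square distance of 0.54 over the 5 arrays. Scgb2b24 is a secretoglobin of the partner kind, and in the reference annotation of chromosome 1 it lies 2 coding genes away from Scgb1b30. It read 10.20 and 7.24 in the saline rats, 7.23 at 10 min, 6.02 at 30 min and 6.92 at 60 min. The first saline rat was thus the highest for both genes, and the second minus the first was -1.91 for Scgb1b30 and -2.96 for Scgb2b24. Next came the interferon-induced genes Mx2 at 0.63 and Rtp4 at 0.72. Mx2 was at 7.43 and 6.55 in the saline rats and at 6.54, 5.01 and 4.70 at 10, 30 and 60 min, and so was also highest in the first saline rat and lower at 30 and 60 min.

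That saline rat also stood apart in other saliva genes. Vcsa2, a submandibular gland gene, was detected only there, at 7.42, and was at 4.37 to 4.49 in the other 4 glands. Prb1, a proline-rich protein gene, read 14.30 there and 15.18 in the second saline rat, and Lcn1, a lipocalin gene, was 1.47 higher in the second saline rat than in the first. It was also the saline gland with the high muscle markers (49527, against 920 in the other). The gland at 30 min had a similar muscle sum (50384), and there Scgb1b30 had its lowest value, 7.82, and Spt1 read 7.96. Within the saline pair, the low Spt1 and high Scgb1b30 values come from the first saline gland alone. Scgb2b24, Lcn1 and Pip were also on a list of lacrimal and sebaceous gland markers, of which 6 were on the array. The summed intensity of that list was 33606 and 37567 in the saline rats and 38427, 36559 and 38030 at 10, 30 and 60 min. Pip was its brightest gene on every array. The part of other tissue in these values was not tested.

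Scgb1c1 lay farthest below the top of the scale and had nearly equal values at the 3 isoproterenol times. It read 6.23 and 6.41 in the saline rats and 5.66, 5.61 and 5.64 at 10, 30 and 60 min. All 3 isoproterenol glands lay below both saline glands, and those at 10 and 30 min, the farthest apart, differed by about 0.05. Scgb1c1 differed from the saline mean by -0.66, -0.71 and -0.68 (SE 0.21 each), about 1.58-fold to 1.64-fold lower. At this level background weighs heavily, and without background correction the differences were -0.37, -0.40 and -0.38.

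The promoter stretch of Scgb1b30 is chr1:95854445-95854694 on the plus strand (RefSeq, GRCr8), shown for the secretoglobin with the larger differences. TATAAA in capitals lies at positions -44 to -39.
Scgb1b30: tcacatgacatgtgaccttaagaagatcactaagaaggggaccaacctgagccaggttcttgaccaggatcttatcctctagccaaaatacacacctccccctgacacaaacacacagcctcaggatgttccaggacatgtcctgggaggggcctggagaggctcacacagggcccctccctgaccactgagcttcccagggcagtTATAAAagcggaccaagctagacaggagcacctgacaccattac

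Promoter stretches were found for 8 of the 10 members, all but Slpi and Grpca. The cAMP response element, TGACGTCA, searched on both strands in the 250 bases before the start, was in 0 of these 8, and in 1.59% of the 33460 stretches of the whole table. The shorter core TGACG on either strand, which is contained in the full element, was in 1 of 8 (Spt1) and in 18.2% of all. TATAAA on the given strand was in 5 of 8 (Amy1, Lpo, Oprpn, Prr4 and Scgb1b30) and in 8.06% of all. It lay nearest the annotated start in Lpo, at positions -31 to -26, followed by Prr4 and Scgb1b30 as printed above, and then Amy1 at -84 to -79. These counts describe letters in a window and say nothing about binding.

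Across the members, limma's moderated test with Benjamini-Hochberg adjustment over all 10793 tested probes, at an adjusted p of 0.05, called 2 of 10 at 10 min, both higher (Prr4 and Grpca), where 0.0278% of all tested probes were called. That background is 3 probes, of which Prr4 and Grpca are 2 and RT1-A2, a class I histocompatibility gene, is the other. At 30 min it called 0 of 10 members and 0% of all tested probes, although 2139 probes had an unadjusted p under 0.05. At 60 min it called 3 of 10, with Oprpn and Prr4 higher and Spt1 lower, where 24.4% of all tested probes were called (13.0% higher and 11.4% lower). With no filter on dim probes 0 members were called at either of these times, with detection required on 2 arrays Grpca was the 1 member called at 10 min, and with a robust prior variance Spt1 was not called at 60 min. Lpo was also called at 60 min, as higher, without background correction, from the authors' values and when the prior variance followed intensity. In the last of these settings Scgb1b30 was called lower as well. Since the members were chosen from these same contrasts, nothing is read from these counts and calls. The fit had 1 residual degree of freedom, from the saline pair, so the spread at each time is borrowed from those 2 rats and from all probes.

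By size alone, 4 of 10 members at 10 min differed by at least 1 from the saline mean and lay outside both saline values, with Prr4 and Grpca higher and Slpi and Scgb1b30 lower. The rule was met by 2.19% of all tested probes, 0.324% higher and 1.86% lower. At 30 min these were 3 of 10, all lower (Slpi, Spt1 and Scgb1b30), where 6.75% of all tested probes met the rule (4.26% higher and 2.48% lower). At 60 min they were 4 of 10, with Oprpn and Prr4 higher and Spt1 and Scgb1b30 lower, where 21.0% of all tested probes met it (11.9% higher and 9.06% lower). Just inside this limit were Slpi at 10 min with -1.20 and Scgb1b30 at 10 min with -1.41, and just outside it were Grpca at 30 min with -0.98 and Scgb1c1 at 30 min with -0.71. Without the first saline rat the count at 10 min was 2, Prr4 and Grpca. Bpifa2f, Slpi, Scgb1b30 and Scgb1c1 were below both saline rats at all 3 times, a pattern of 16.9% of all tested probes. The median difference of the members was 0.09, -0.68 and -0.27 at 10, 30 and 60 min, beside 0.03, -0.03 and -0.08 over all tested probes. The members thus did not move as 1 group, and opposite directions occurred at each time.

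**Figure D3:**
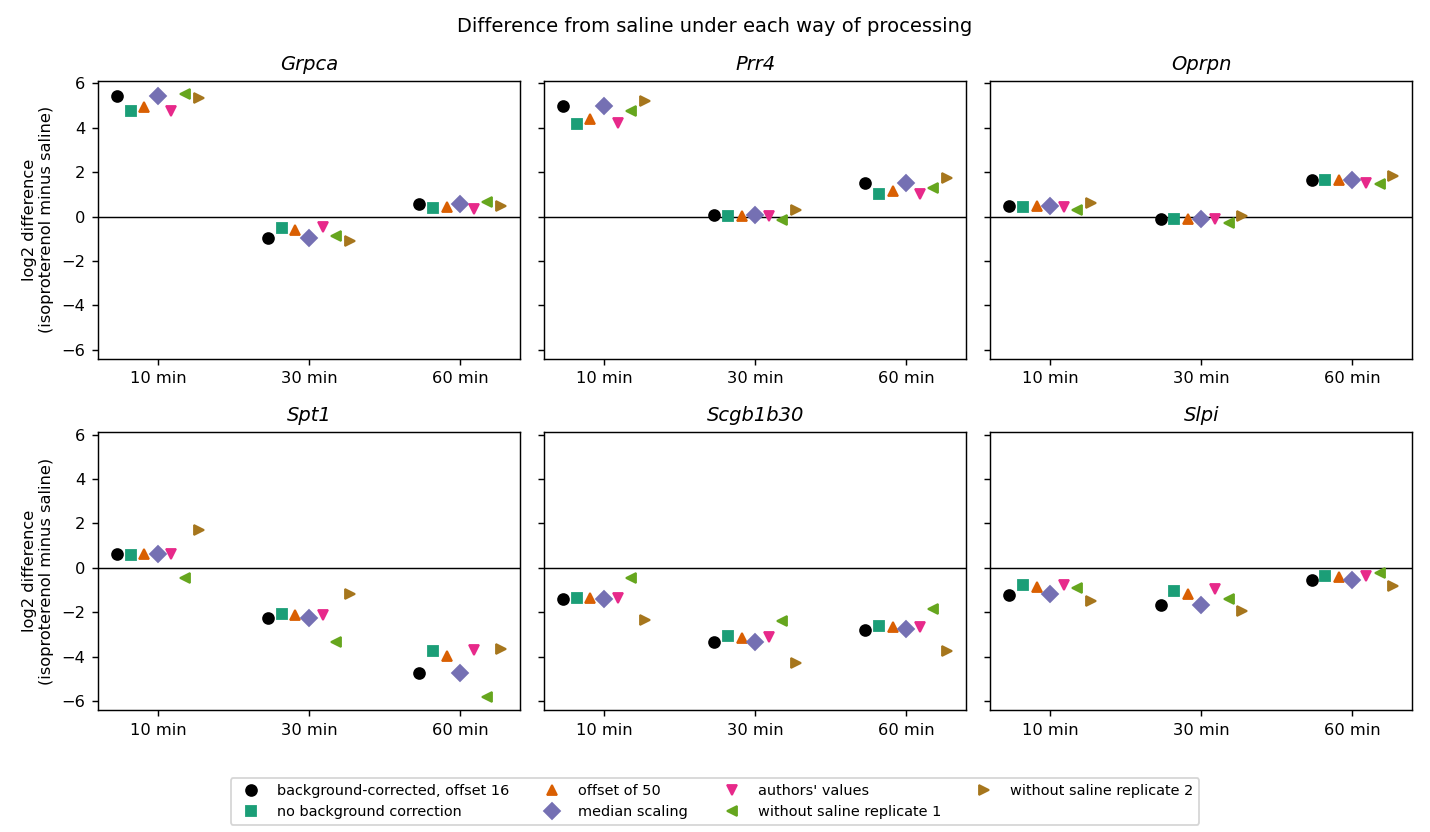
Log2 difference of the gland at each isoproterenol time from the saline mean (vertical axis) for the 6 members with the widest ranges, under 7 ways of processing or of choosing the saline rats (symbols). Grpca and Prr4 at 10 min stay above 4 in every setting, and Spt1 and Scgb1b30 move most when either saline rat is left out.

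Beside the members, 65 other saliva protein genes were listed, of which 48 were on the array and 27 were tested. This list was also chosen with earlier results of these data known, so its calls and adjusted p-values are descriptions. A fall here means a lower value in the 1 rat at 60 min than in the saline rats. None was called at 10 or 30 min. At 60 min 0 were higher and 4 of 27 were lower, all with limma's adjusted p. These 4 are 14.8%, beside 11.4% of all tested probes called lower and 24.4% called in either direction. The 1 higher call in the 3 settings named above was Smr3a. Pla2g2a, a secreted phospholipase with antibacterial activity, fell by 2.07 ± 0.28 (SE, adjusted p = 0.0281), with 5.39 at 60 min, against 7.21 and 7.71 in the saline rats. Rnase4, a secreted ribonuclease, fell by 2.05 ± 0.21 (SE, adjusted p = 0.0281), with 7.09 at 60 min, against 9.22 and 9.07 in the saline rats. Lcn2, which binds bacterial siderophores, fell by 1.55 ± 0.31 (SE, adjusted p = 0.0320), and Cst3, the protease inhibitor cystatin C, fell by 1.33 ± 0.25 (SE, adjusted p = 0.0302). These 4 genes were also below both saline rats at 10 and 30 min. The differences from the saline mean were -1.22 and -0.81 for Pla2g2a, and -1.65 and -1.06 for Rnase4. For Lcn2 they were -0.53 and -0.63, and for Cst3 -0.69 and -0.27. All 4 encode proteins that many tissues make. At 60 min 10 of 11 tested endothelial and fibroblast markers and 8 of 10 tested adipocyte markers were called lower (11.4% of all tested probes). Of the endothelial markers Vwf, Cdh5 and Tek, Vwf alone was tested, so the first count is mostly of fibroblast and matrix genes. The summed adipocyte markers were 2116 at 60 min, against 7893 and 7455 in the saline rats. The median difference of the tested endothelial and fibroblast markers was -1.60, -1.08 and -1.73 at 10, 30 and 60 min. That of the tested adipocyte markers was -0.69, -0.05 and -1.31. The part of these tissues in the 4 lower values was not tested.

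Other bright acinar products lay near the top of the scale, as Amy1 did. Prb3 was at the top rank on every array. Bpifa2, Prpmp5 and Dnase1 stayed within 0.33 of the top on all 5 arrays, and Pip, Prp15 and Prb1 differed from the saline mean by 0.08, 0.30 and 0.38 at 60 min, none past the threshold. The mean levels of these 6, encoding a lipopolysaccharide-binding protein, 3 proline-rich proteins, a deoxyribonuclease and prolactin-induced protein, lay within 0.52 of the top. Of the brightest of the list further down, Smr3a and Nucb2 differed by 0.55 and 0.29 at 60 min.

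**Figure D4:**
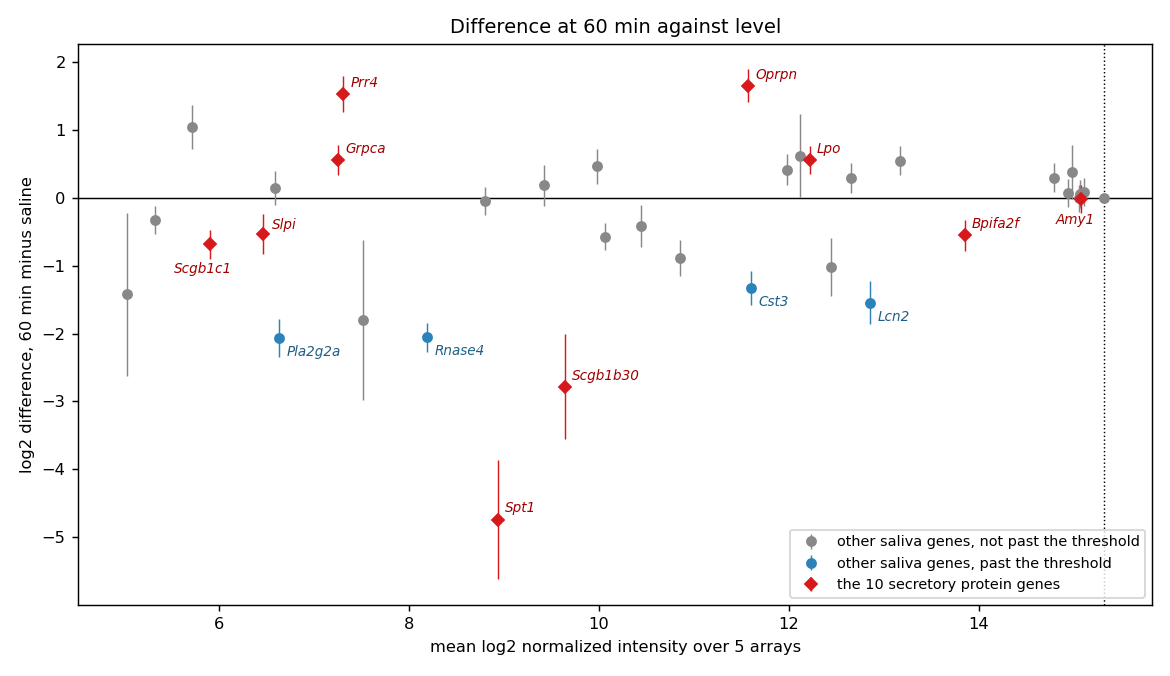
Log2 difference of the gland at 60 min from the saline mean (vertical axis, bars are limma's SE) against mean log2 normalized intensity over the 5 arrays (horizontal axis) for the 10 members (red diamonds), the other saliva genes past the threshold (blue) and the rest (grey). The dotted line is the top of the scale at 15.32, and the points within 0.52 of it lie between -0.02 and 0.38.

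Of 27 listed genes of regulated secretion and acinar identity, 22 were on the array and 15 were tested. The same limit holds for this list, whose calls at 60 min describe 1 rat. None was called at 10 or 30 min, and at 60 min 3 of 15 were called higher and 1 lower (26.7%, beside 24.4% of all tested probes). Sox10, a transcription factor of acinar and myoepithelial progenitors, was 1.18 ± 0.27 higher (SE, limma's adjusted p = 0.0404). Elf5, an epithelial transcription factor, was 1.05 ± 0.20 higher (SE, limma's adjusted p = 0.0309). Creb3l1, a membrane-bound transcription factor of secretory cells, was 1.01 ± 0.24 higher (SE, limma's adjusted p = 0.0436). Xbp1, which drives the expansion of the endoplasmic reticulum in secretory cells, fell by 0.81 ± 0.20 (SE, limma's adjusted p = 0.0481). The water channel gene Aqp5, with -0.18 ± 0.20, and the granule GTPase gene Rab3d, with -0.25 ± 0.22, did not pass the threshold at 60 min.

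**Figure D5:**
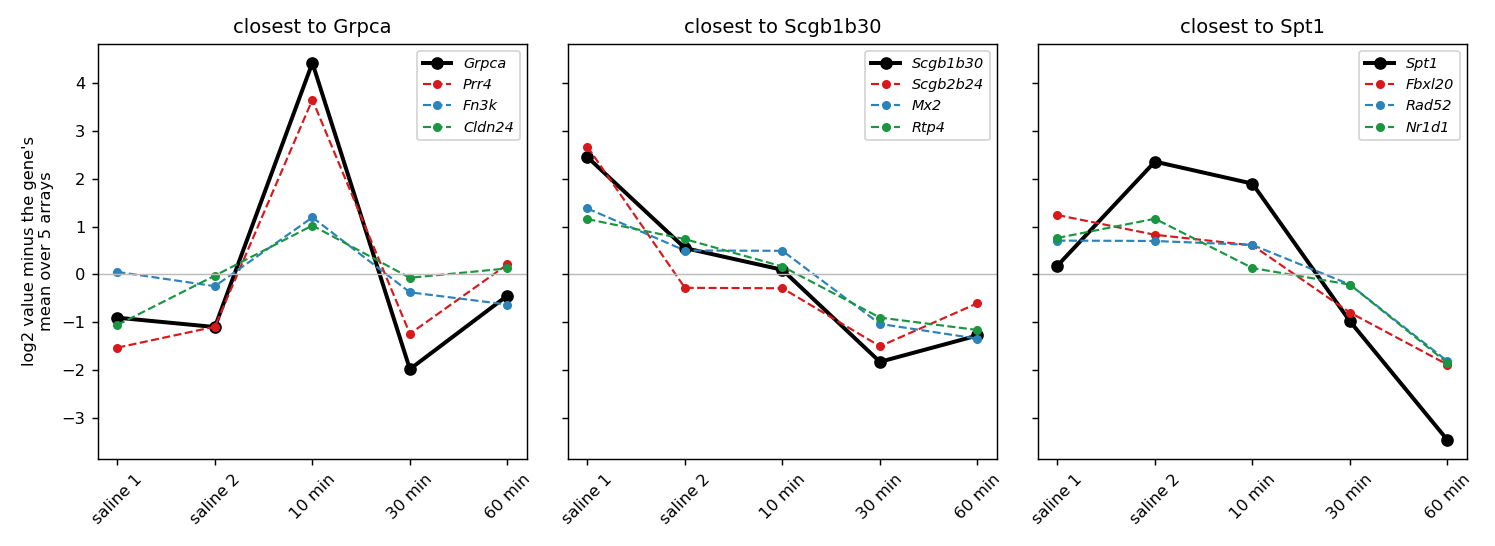
Log2 value of Grpca, Scgb1b30 and Spt1 minus each gene's own mean over the 5 arrays (vertical axis, black), with the 3 closest profiles of other named genes (coloured), by array. Prr4 follows Grpca through the peak at 10 min, and Scgb2b24 follows Scgb1b30, the first saline rat being the highest for both.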

How the data were processed

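Rat parotid glands of 5 rats were measured on Illumina bead arrays after amplification and biotin labelling, per the labels' protocols. The authors deposited 22517 probes with a linear intensity and a detection p-value from each array, and a processed value table that looks like log2 values. The deposited log2 values rest on a transform not given in the sources used here, as do the software and the build. The intensity columns deposited by the authors shared one distribution, so they had been quantile normalized, and no background had been subtracted. That fixes the brightest values and hides a shift of the whole distribution.

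From the intensities, limma 3.58.1 in R 4.3.3 was used for background correction by detection p-value (neqc, offset of 16), quantile normalization and log2. Models with 1 mean per group (lmFit, eBayes) covered all 5 arrays and the 10793 probes with a detection p-value under 0.01 on at least 1 array. P-values were two-sided, Benjamini-Hochberg adjusted, and called at 0.05. Only the model fit was tested on simulated data, which were log2 values and did not pass through background correction or normalization. With 1 residual degree of freedom, the number of arrays limits the precision. SE is limma's, and SD is not given because it would rest on 2 rats.

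The members and lists were chosen with earlier results of these data known. Besides all members, the text names genes of the 2 lists of other genes that passed the threshold (up to 6 in each direction) or were among the 10 brightest of their list, and the 3 closest profiles of each member spanning at least 2 log2 units over the arrays. Smr3a, Aqp5, Rab3d and the marker genes named beside results were taken from the listed genes. Alternatives were no background correction, an offset of 50, median scaling, the authors' values, other filters and priors, and each saline rat left out. Gene names came from the platform annotation and RefSeq (GRCr8).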

Additional observations from a re-analysis of the deposited data

Results flagged for a closer look

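Grpca stood on opposite sides of the saline rats at different times. Its log2 difference from the saline mean was 5.43 at 10 min, above both saline values, and -0.98 at 30 min, below both. At 60 min it was 0.56, again above both saline values. The intensity at 30 min was 87.8, near the median of 74.7 over all probes of that array. The difference at 30 min was -0.52 without background correction and -0.47 in the authors' deposited table of processed values. Each time is 1 rat, and the difference between times was not tested.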

How the results depend on the processing

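Each time is 1 rat, so no isoproterenol value has a replicate, and without a saline rat no spread remains for a test. No paired analysis was possible because the isoproterenol groups have 1 rat each. Members called at 10 min were 2, but 0 with no filter on dim probes and 1 with detection on 2 arrays. Members called at 60 min were 3, but 0 with no filter and 5 when the prior variance followed intensity. Other saliva genes called at 60 min were 4, but 7 without background correction and 7 from the authors' deposited values, Smr3a higher and 6 lower in both, and 0 when unfiltered. Acinar genes called at 60 min were 4, but 0 with no filter. No member was called at 30 min in any setting run. Over the alternatives, all-probe calls ran from 0 to 13 at 10 min, 0 to 8 at 30 min and 0 to 2981 at 60 min. Members at least 1 from saline were 2 to 5 at 10 min, 3 to 4 at 30 min and 4 at 60 min when a saline rat was left out, in alternatives chosen after seeing the data. Other values also lowered these counts, from 4 to 3 at 10 min without Slpi (no background correction, an offset of 50 and the authors' values), and with the authors' values to 2 at 30 min without Slpi and to 3 at 60 min without Prr4. The sign turned for Amy1 at 60 min with median scaling, for Spt1 at 10 min and Prr4 at 30 min without the first saline rat, and for Oprpn at 30 min without the second.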
